A study of Mus musculus with 18 samples.

Results

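The genes described here are the mouse cytochrome P450 genes of families 1 to 4, the enzymes that oxidise drugs, carcinogens, steroids, bile acids and fatty acids. They were taken by symbol: a gene was a member when its symbol was Cyp, a family number from 1 to 4, a letter and a number, and when at least 1 probe set was annotated to that gene alone. This gave 54 genes, represented by 67 probe sets, of 18193 genes with such a probe set. Family 1 had 3 members, family 2 had 35, family 3 had 5 and family 4 had 11. For the 11 members with several probe sets, the one with the highest mean log2(signal + 16) was used, where signal is the deposited linear intensity of a probe set.

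Colorectal RNA of male mice of the outbred ICR stock was hybridised to Affymetrix Mouse Genome 430 2.0 arrays. There were 6 groups of 3 biological replicates, 1 array each. Normal mucosa came from mice given saline and distilled water, with no carcinogen and no irritant, and was collected on day 14. Mice of the other groups were injected on day 1 with 10 mg/kg of the colon carcinogen azoxymethane (AOM). Their drinking water later held dextran sulphate sodium (DSS), an irritant of the colon lining. The first cycle of 2% DSS ran over days 8 to 14, and cycles of 1.5% followed over days 29 to 33 and days 50 to 54 in groups that reached them. Inflamed mucosa was collected on day 14, low-grade dysplasia on day 28, high-grade dysplasia on day 42, high-grade dysplasia with active inflammation on day 56, and carcinoma on day 140. Mice were 6 weeks old at the start, and stages were called under the microscope. Because normal mucosa was taken on day 14 only, stage and age cannot be told apart for the later groups, and AOM and DSS cannot be told apart in any group. All comparisons with normal mucosa share the same 3 normal arrays.

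Cytochromes P450 are haem enzymes of the endoplasmic reticulum that insert an oxygen atom into their substrate with electrons passed on by P450 reductase and cytochrome b5. Members of families 1 to 3 carry out much of the oxidation of foreign compounds in liver and gut and are induced through nuclear receptors and the aryl hydrocarbon receptor, while family 4 and the Cyp2c and Cyp2j subfamilies also act on arachidonic acid and other fatty acids. In the colon they are found mainly in surface epithelium. Both activation of AOM to its DNA-alkylating form and breakdown of inflammatory lipid mediators are P450 reactions.

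Of the 54 members, 31 lay near background, meaning that fewer than 3 of the 18 arrays exceeded the median signal of the whole table, 56.6. In 29 of these 31 no array exceeded it, and their signals lay between 4.21 and 62.5. They include the classical targets of the aryl hydrocarbon receptor Cyp1a1 and Cyp1a2, the major hepatic Cyp3a11 together with Cyp3a16, Cyp3a25 and Cyp3a44, and both members of the fatty acid hydroxylase subfamily Cyp4a, Cyp4a14 and Cyp4a31. Also near background were Cyp2r1, a vitamin D 25-hydroxylase, and Cyp2u1. The rest were Cyp2a12, Cyp2b9, Cyp2b13, Cyp2b19, Cyp2c23, Cyp2c29, Cyp2c37, Cyp2c38, Cyp2c39, Cyp2c50, Cyp2c54, Cyp2d40, Cyp2g1, Cyp2j5, Cyp2j9, Cyp2j11, Cyp2j13, Cyp4f14, Cyp4f15, Cyp4f39 and Cyp4x1. Cyp1a1 ranged from 14.2 to 22.3 over all arrays, so no array of any stage stood out.

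The remaining 23 members were tested, 1 of family 1, 16 of family 2, 1 of family 3 and 5 of family 4. Signals of 7 of them exceeded the table's median on all 18 arrays. A member could pass through the group in which it was high, so counts over these 23 describe the tested members and are not evidence about the family as a whole.

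**Figure D1:**
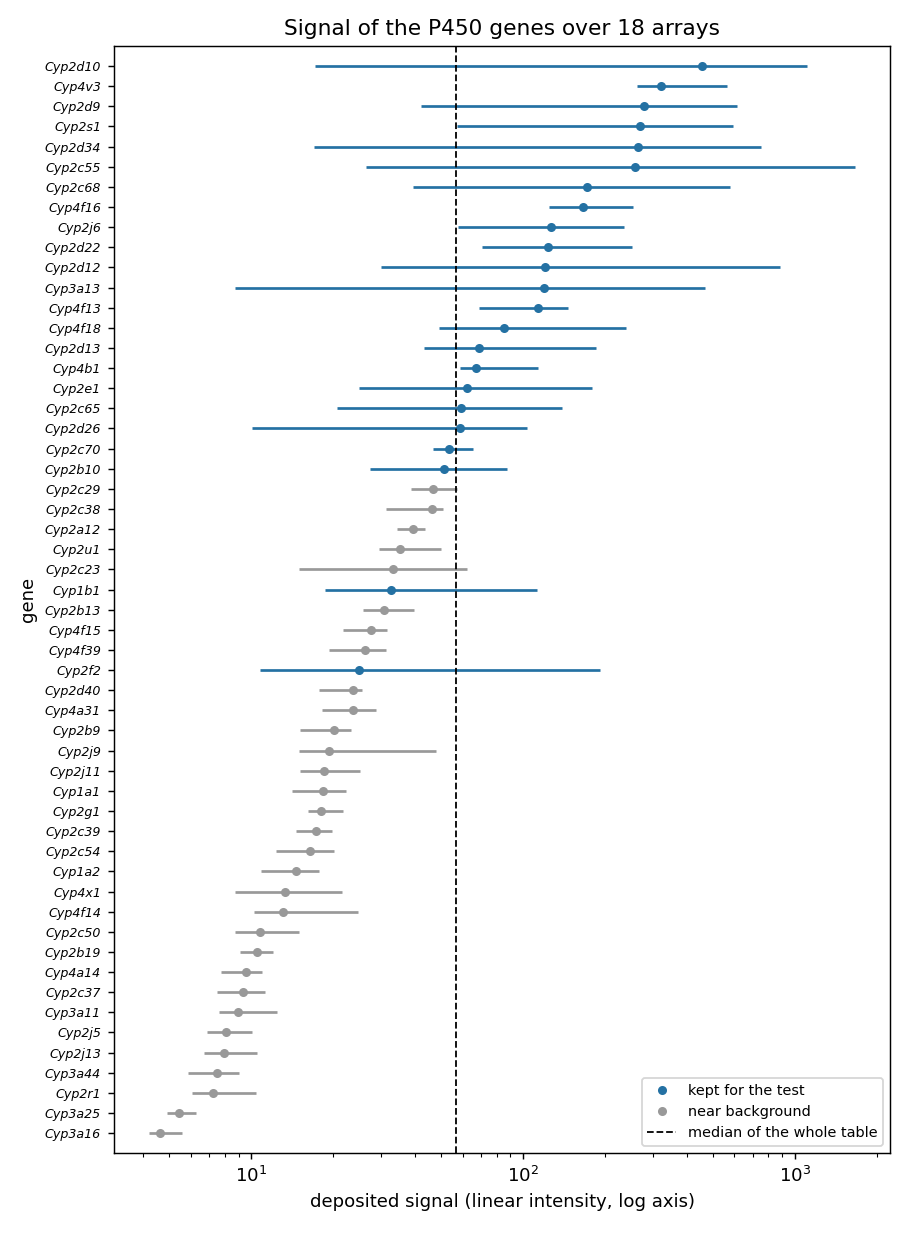
Deposited signal (log axis) of the 54 P450 genes, with the line running over the lowest to the highest of 18 arrays and the point at the median; the dashed line is the median of the whole table, 56.6. The 31 genes in grey are near background and the 23 in blue were tested; levels of different probe sets are not comparable with each other.

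After 2 weeks, in inflamed mucosa, most tested members were lower than in normal mucosa. With an adjusted p under 0.05 (limma, Benjamini-Hochberg over 12868 genes), 16 of the 23 members differed, against 46.8% of all genes; 14 fell, against 24.3%, and 2 rose, against 22.5%. The 14 included 3 of 4 tested Cyp2c members, 6 of 7 Cyp2d members, the single tested Cyp3a member Cyp3a13, and Cyp2s1. The median log2 change of the 23 members was -0.94, beside 0.01 for all genes. All 3 inflamed arrays lay below all 3 normal arrays in 16 members, against 30.8% of all genes, and above them in 5, against 29.3%. These directions hold for values as deposited and after quantile normalization; when each array was set relative to its epithelial markers, 9 of the 14 falls at 2 weeks turned positive, 4 of them with a call. On that scale the median of all genes moved by 2.92, and 13 members were called higher and 1 lower, where 94.5% and 0.357% of all genes were.

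**Figure D2:**
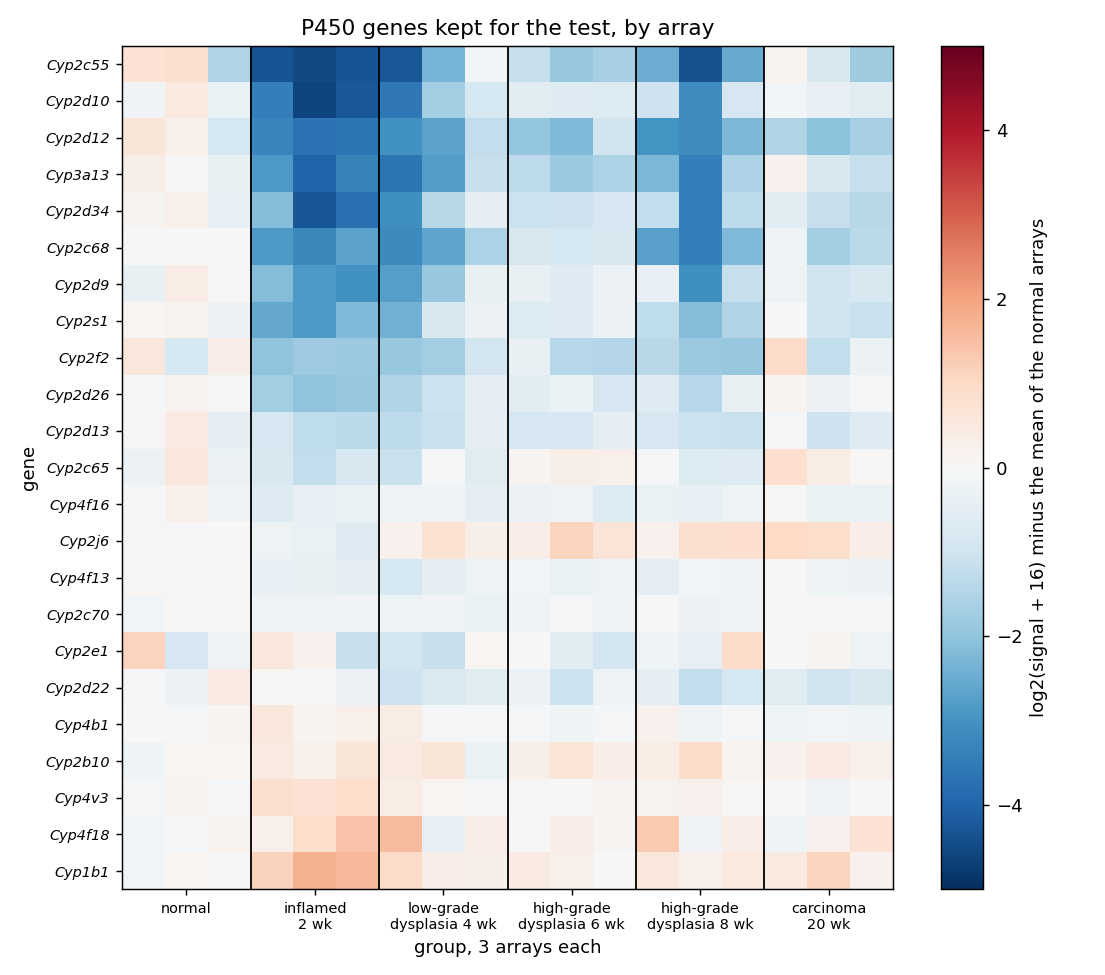
Difference of log2(signal + 16) from the mean of the normal arrays, for the 23 tested P450 genes (rows, ordered by the change in inflamed mucosa) on 18 arrays (columns, 3 per group). Blue rows at the top are low in all 3 inflamed arrays and, for several genes, as low on single later arrays such as 8-week replicate 2, and Cyp1b1 and Cyp4v3 at the bottom are highest there; colours are for values as deposited, not relative to epithelial markers.

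Markers of the cell types in the mucosa moved at the same time. Of 15 general epithelial markers, 14 fell in inflamed mucosa, and their mean log2 signal lay 1.38 to 4.78 below that of normal mucosa on the 3 arrays (individual differences -1.38, -4.78 and -2.58). Of 10 mature colonocyte markers, 9 fell, with a median change of -3.15, whereas 7 of 7 neutrophil, 7 of 8 macrophage, 8 of 8 fibroblast and 6 of 6 endothelial markers rose (24.3% of all genes fell and 22.5% rose). In tissue, fewer cells of a type and less RNA per cell cannot be told apart, and the part of these shifts in the P450 changes was not tested. In low-grade dysplasia and at the later stages the mean of the epithelial markers stayed between -0.42 and 0.25 of the normal mean, while the mean of the colonocyte markers ranged from -3.21 to -0.23 in low-grade dysplasia and from -3.68 to -1.001 in high-grade dysplasia at 8 weeks. The colonocyte mean ranged from -0.98 to -0.87 at 6 weeks and from -1.37 to -0.69 in carcinoma. At each of these stages 1 of 10 colonocyte markers was called lower. The mean of the neutrophil markers was above normal mucosa at each later stage, by 2.60 in low-grade dysplasia (2 of 7 markers called), 1.78 at 6 weeks (0 called), 2.24 at 8 weeks (2 called) and 1.69 in carcinoma (0 called). The median change of the neutrophil markers was smaller, at 2.04, 0.57, 1.30 and 0.69 in these groups. Fibroblast markers were 0.74 above normal mucosa in low-grade dysplasia (1 of 8 called), and smooth muscle markers were 1.17 below it at 8 weeks (2 of 6 called). Of all genes, 2.61% rose and 3.09% fell in low-grade dysplasia, and 4.83% rose and 6.4% fell at 8 weeks. At 6 weeks 1.14% of all genes and in carcinoma 0.901% differed in either direction. The part of these later marker shifts in the P450 values was not tested either. Of 8 hepatocyte markers, Apoa1, Ahsg and Fgb were near background. Among the 4 tested, 0 rose and 2 fell in inflamed mucosa, with a median change of -0.70.

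**Figure D3:**
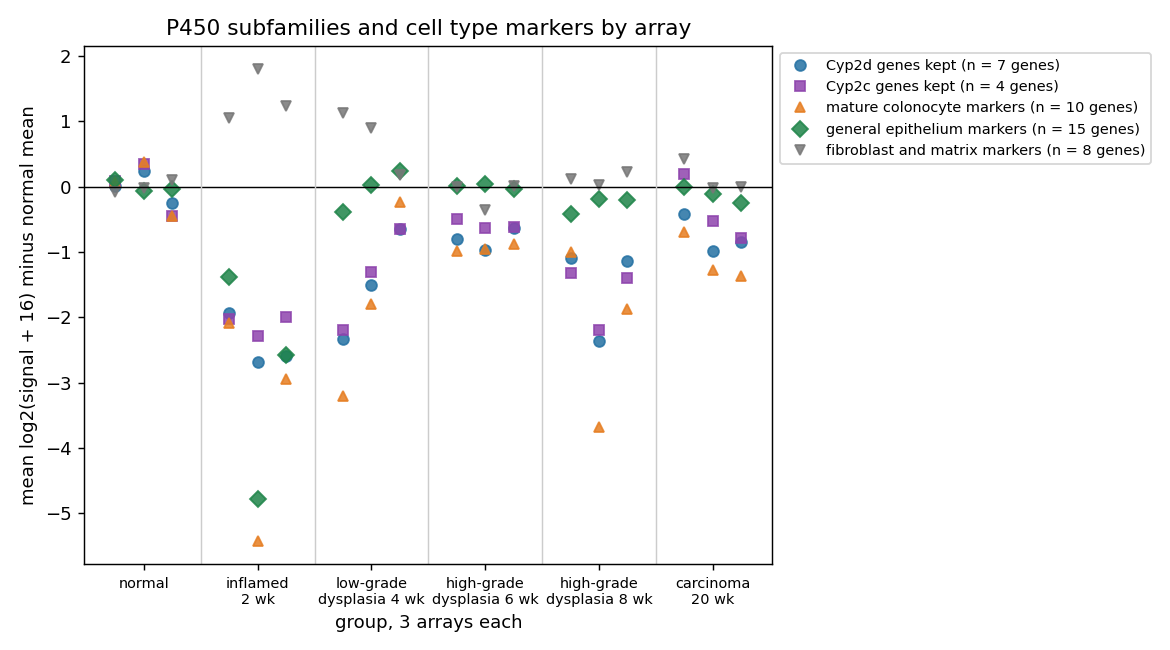
Mean difference of log2(signal + 16) from normal mucosa on each array, for the tested Cyp2d (7) and Cyp2c (4) genes and for markers of mature colonocytes, general epithelium and fibroblasts; each symbol is 1 array. In inflamed mucosa all but the fibroblast markers are below 0, and in the dysplasia and carcinoma groups the P450 genes and colonocyte markers lie lower than the general epithelial markers on nearly every array.

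Family 1 had a single tested member, Cyp1b1, which oxidises oestrogens and polycyclic hydrocarbons and is known mainly from stromal cells. Its signal was 67.4, 113 and 101 in inflamed mucosa, against 18.7, 24.6 and 23.0 in normal mucosa. The groups did not overlap, and normal mucosa lay at background. The log2 change was 1.51 ± 0.23 (SE, n = 3 each, adjusted p = 0.000109). With the normal arrays set to the table's median, the change was at least 1.49-fold higher on the log2(signal + 16) scale, which understates the change of dim genes. The rise was seen in the chosen probe set only. Other Cyp1b1 probe sets, at 5.43 to 7.55 and at 14.6 to 24.1, lay below the table's median on all 18 arrays. Their log2 changes in inflamed mucosa were 0.06 and 0.04. Later values of Cyp1b1 were 57.5, 31.5 and 31.0 in low-grade dysplasia, 33.9, 29.2 and 22.6 in high-grade dysplasia at 6 weeks, 40.4, 29.9 and 37.4 at 8 weeks, and 36.7, 67.1 and 28.2 in carcinoma. None of these 4 stages passed the test against normal mucosa, and the fall between inflamed mucosa and low-grade dysplasia did (-0.98 ± 0.23, adjusted p = 0.00425). Over the 18 arrays Cyp1b1 ran with the means of the fibroblast (Pearson r = 0.80), neutrophil (0.88) and macrophage markers (0.79). It ran against the means of the general epithelial (-0.82) and colonocyte markers (-0.73). These values are given as a description since the arrays share the stages.

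The Cyp2c subfamily, known for hydroxylating and epoxidising arachidonic acid and many drugs, had 11 members, of which 4 were tested. Cyp2c55, an enzyme abundant in mouse colon that forms hydroxylated arachidonic acid, had signals of 32.9, 26.6 and 32.8 in inflamed mucosa, against 1576, 1669 and 321 in normal mucosa. All 3 inflamed arrays were below the table's median, and normal replicate 3 was far under the other 2 normal arrays. The log2 change was -4.37 ± 0.87 (adjusted p = 0.000865), at least 13.3-fold lower with the inflamed arrays set to the table's median, and it was -4.90 with a pseudocount of 1 in place of 16. Cyp2c55 then measured 35.3, 178 and 870 in low-grade dysplasia, 423, 247 and 288 in high-grade dysplasia at 6 weeks, 159, 31.2 and 152 at 8 weeks, and 1083, 537 and 269 in carcinoma. Low-grade dysplasia spanned from the inflamed to the normal range and did not pass the test (adjusted p = 0.135), whereas high-grade dysplasia at 8 weeks did (-3.11 ± 0.87, adjusted p = 0.037); dropping normal replicate 1 or 2, or 8-week replicate 2 or 3, left it without a call (adjusted p 0.06 to 0.133).

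Cyp2c68 varied little within normal mucosa and within high-grade dysplasia at 6 weeks, and more within the other groups. It had 64.6, 46.9 and 75.6 in inflamed mucosa, against 580, 563 and 558 in normal mucosa, a log2 change of -2.91 ± 0.40 (adjusted p = 4.71e-05). Low-grade dysplasia, at 48.4, 78.4 and 181, was also lower than normal mucosa (-2.46 ± 0.40, adjusted p = 0.00752). In high-grade dysplasia it was 315, 304 and 315 at 6 weeks but 73.7, 39.3 and 109 at 8 weeks, and in carcinoma it was 484, 163 and 215. The 8-week value was lower than normal mucosa (-2.77 ± 0.40, adjusted p = 0.00283), and this call was kept without any 1 of the 6 arrays. The 2 high-grade groups did not overlap, but their difference did not pass over all genes (-1.94 ± 0.40, adjusted p = 0.999). Cyp2c65 fell in inflamed mucosa (33.8, 20.6 and 33.1, against 54.6, 112 and 54.6 in normal mucosa; -0.94 ± 0.28, adjusted p = 0.0124), and Cyp2c70, which makes the muricholic bile acids of mice, stayed between 46.6 and 65.5 on all arrays and passed no test.

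Promoter sequences of Cyp2c55, Cyp2c65 and Cyp2c68 are shown because these 3 genes fell together at 2 weeks. They are RefSeq windows on GRCm38.p6, from 250 bases before to 50 bases after the annotated start, written 5′ to 3′ along the gene. Capitals mark matches on either strand to TATAAA (the TATA box), CAAAGTCCA (HNF4A site), GTTAAT (the half-site of HNF1), GCGTG (core of the aryl hydrocarbon receptor site), or AGTTCA (PXR half-site); in the windows printed here the matches do not overlap. The PPAR DR1 motif, AGGTCA repeated after 1 base of any kind, was searched too and had 0 matches in the 49 member windows.
Cyp2c55 (chr19:39006769-39007068, plus strand): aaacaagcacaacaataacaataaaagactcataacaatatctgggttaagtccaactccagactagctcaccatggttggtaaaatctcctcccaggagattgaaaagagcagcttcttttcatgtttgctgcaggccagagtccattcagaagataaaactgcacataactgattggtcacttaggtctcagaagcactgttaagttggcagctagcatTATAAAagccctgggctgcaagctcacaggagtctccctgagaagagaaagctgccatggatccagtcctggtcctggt
Cyp2c65 (chr19:39060756-39061055, plus strand): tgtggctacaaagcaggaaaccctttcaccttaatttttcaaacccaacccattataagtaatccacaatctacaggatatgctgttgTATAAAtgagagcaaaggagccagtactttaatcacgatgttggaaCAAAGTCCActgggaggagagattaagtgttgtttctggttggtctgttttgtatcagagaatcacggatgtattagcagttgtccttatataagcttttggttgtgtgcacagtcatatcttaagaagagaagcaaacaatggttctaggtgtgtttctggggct
Cyp2c68 (chr19:39741052-39741351, minus strand): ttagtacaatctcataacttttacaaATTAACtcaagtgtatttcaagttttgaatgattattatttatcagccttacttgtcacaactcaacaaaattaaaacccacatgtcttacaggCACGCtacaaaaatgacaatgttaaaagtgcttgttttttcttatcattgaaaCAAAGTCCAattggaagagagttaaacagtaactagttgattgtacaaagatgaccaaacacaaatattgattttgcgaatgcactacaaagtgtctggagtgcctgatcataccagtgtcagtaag
The Cyp2c55 window has a TATA box that starts at -29. Windows of Cyp2c65 and Cyp2c68 have the HNF4A letters at -116 and -77, and that of Cyp2c70, which did not fall, has them at -64. These letters occur in 0.475% of 32851 mouse promoter windows of the same length and in 3 of the 19 tested members that have a window. The 3 belong to 1 subfamily, and their windows were 48 to 51.4% identical, within the 44.6 to 54.8% of pairs of windows from different families. Of all 49 member windows 5 have these letters, among them those of Cyp3a11 (-109) and Cyp3a16 (-99), both near background. A match is a description of the letters and not evidence that a factor binds. Cyp2c55 and Cyp2c65 are next to each other on chromosome 19.

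The Cyp2d subfamily, the mouse relatives of human CYP2D6, had 8 members, of which 7 were tested and 6 fell at 2 weeks with a median change of -2.70. Cyp2d10 measured 59.3, 17.2 and 26.5 in inflamed mucosa, against 698, 1113 and 612 in normal mucosa (-4.07 ± 0.62, adjusted p = 0.000105). Inflamed and normal arrays were apart by a wide margin. In low-grade dysplasia Cyp2d10 was 51.0, 231 and 421, in high-grade dysplasia 517, 491 and 483 at 6 weeks and 373, 75.1 and 425 at 8 weeks, and in carcinoma 710, 585 and 543. None of these later groups passed against normal mucosa, and 8-week replicate 2 and low-grade replicate 1 stood well below their groups. The rise between inflamed mucosa and low-grade dysplasia passed (2.03 ± 0.62, adjusted p = 0.019), although the groups overlapped and the call was lost without inflamed replicate 2 or 3 or low-grade replicate 2 or 3 (adjusted p 0.0575 to 0.0948).

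Cyp2d12 fell to 46.5, 30.1 and 33.0 in inflamed mucosa, against 886, 700 and 312 in normal mucosa (-3.52 ± 0.46, adjusted p = 3.25e-05). It was the Cyp2d member that stayed furthest below normal mucosa at every later stage: 57.0, 77.1 and 241 in low-grade dysplasia, 139, 114 and 285 at 6 weeks, 58.6, 52.6 and 108 at 8 weeks, and 193, 128 and 175 in carcinoma. The change passed in low-grade dysplasia (-2.31 ± 0.46, adjusted p = 0.0158) and at 8 weeks (-2.79 ± 0.46, adjusted p = 0.00537). Of the 6 fits without 1 array, 4 lost the low-grade call (limma adjusted p up to 0.069) and all kept the 8-week call. In carcinoma all 3 arrays were below all 3 normal arrays, with a change of -1.73 ± 0.46 that did not pass (adjusted p = 0.0811). Cyp2d34 had 125, 17.02 and 32.4 in inflamed mucosa, against 690, 753 and 464 in normal mucosa (-3.39 ± 0.67, adjusted p = 0.000807). For Cyp2d9, known in mouse liver as a male-type testosterone 16α-hydroxylase, the values were 91.9, 50.7 and 44.0 in inflamed mucosa, against 363, 611 and 478 in normal mucosa (-2.70 ± 0.60, adjusted p = 0.00187). Neither gene passed at a later stage.

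Smaller falls were measured for Cyp2d26 and Cyp2d13. Cyp2d26 had 15.8, 10.1 and 12.5 in inflamed mucosa, against 81.2, 104 and 82.8 in normal mucosa (-1.87 ± 0.27, adjusted p = 7.36e-05), and 20.5, 33.6 and 60.3 in low-grade dysplasia (-1.02 ± 0.27 from normal, adjusted p = 0.043). That low-grade call was lost in 5 of the 6 fits without 1 array (limma adjusted p up to 0.177). Cyp2d13 had 68.3, 46.9 and 43.4 in inflamed mucosa, against 142, 185 and 95.8 in normal mucosa (-1.17 ± 0.27, adjusted p = 0.00234), and it also passed in low-grade dysplasia (-0.96 ± 0.27, adjusted p = 0.0486) and at 8 weeks (-0.998 ± 0.27, adjusted p = 0.0321). Without 1 array, its low-grade call was lost in 5 of 6 fits (limma adjusted p up to 0.189). Its 8-week call was lost in 4 of 6 (adjusted p up to 0.128). A second Cyp2d13 probe set was called lower in inflamed mucosa and at 8 weeks, but not in low-grade dysplasia (adjusted p = 0.101 over 21653 probe sets). Cyp2d22 differed less, with 193, 172 and 148 in inflamed mucosa, against 172, 147 and 253 in normal mucosa, with no call (-0.12 ± 0.24). It was lower than normal mucosa at 8 weeks (130, 70.5 and 92.6; -0.86 ± 0.24, adjusted p = 0.0376), a call that only the fit without 8-week replicate 1 kept (adjusted p up to 0.129 in the other 5). A second Cyp2d22 probe set gave another picture at 2 weeks, with 99.7, 105 and 102 in inflamed mucosa against 254, 189 and 289 in normal mucosa, a change of -1.12 ± 0.36 (adjusted p = 0.0209 over 21653 probe sets), so the probe sets of this gene disagree there. Cyp2d22, Cyp2d10, Cyp2d9, Cyp2d12, Cyp2d34, Cyp2d40 and Cyp2d26 follow each other on chromosome 15 with at most 1 other coding gene between neighbours, and probe sets for such close paralogues may bind more than 1 of their transcripts.

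The windows of Cyp2d9, Cyp2d10 and Cyp2d26 are printed to compare promoters from this stretch of chromosome 15, with capitals as above.
Cyp2d9 (chr15:82452127-82452426, plus strand): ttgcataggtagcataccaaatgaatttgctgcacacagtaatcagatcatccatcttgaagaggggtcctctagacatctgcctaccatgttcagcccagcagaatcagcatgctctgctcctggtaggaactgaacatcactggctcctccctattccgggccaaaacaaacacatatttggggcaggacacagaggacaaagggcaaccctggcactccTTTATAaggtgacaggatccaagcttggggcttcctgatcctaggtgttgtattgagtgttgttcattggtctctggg
Cyp2d10 (chr15:82407145-82407444, minus strand): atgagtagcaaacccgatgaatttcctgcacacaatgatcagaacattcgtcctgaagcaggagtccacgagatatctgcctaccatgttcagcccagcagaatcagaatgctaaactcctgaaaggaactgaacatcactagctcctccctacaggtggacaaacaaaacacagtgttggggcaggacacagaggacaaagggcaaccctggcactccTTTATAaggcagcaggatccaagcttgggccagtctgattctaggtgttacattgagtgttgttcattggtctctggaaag
Cyp2d26 (chr15:82794196-82794495, minus strand): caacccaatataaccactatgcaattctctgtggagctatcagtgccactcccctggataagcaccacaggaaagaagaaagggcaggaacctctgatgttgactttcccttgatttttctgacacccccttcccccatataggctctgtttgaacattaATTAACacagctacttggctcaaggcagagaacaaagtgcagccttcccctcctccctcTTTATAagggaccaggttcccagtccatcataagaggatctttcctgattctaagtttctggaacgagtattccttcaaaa
Each has the TATA letters on the opposite strand, starting at -28 in Cyp2d9 and at -31 in Cyp2d10 and Cyp2d26. The Cyp2d9 and Cyp2d10 windows were 83.3% identical, whereas Cyp2d26 shared 53.9% and 54% with them. The Cyp2d26 values lie within the 44.6 to 54.8% of pairs of windows from different families. TATAAA was found in 13.6% of all windows and in 7 of the 19 tested members with a window.

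Among the other family 2 genes, Cyp2s1, an epithelial P450 that acts on retinoids and lipid peroxides, had 74.1, 57.1 and 99.6 in inflamed mucosa, against 560, 594 and 420 in normal mucosa (-2.55 ± 0.44, adjusted p = 0.000264, 5.86-fold lower). It measured 84.9, 290 and 421 in low-grade dysplasia, 319, 328 and 416 at 6 weeks, 204, 104 and 174 at 8 weeks and 527, 250 and 232 in carcinoma. Of these later groups, the 8-week dysplasias passed (-1.65 ± 0.44, adjusted p = 0.0314), but of the 6 fits without 1 array only that without 8-week replicate 1 kept the call (adjusted p up to 0.105). Cyp2f2, known for activating naphthalene in mouse airway, had 10.8, 14.3 and 13.4 in inflamed mucosa, against 142, 42.5 and 118 in normal mucosa (-1.90 ± 0.48, adjusted p = 0.00494), and 25.5, 14.1 and 13.3 at 8 weeks (-1.69 ± 0.48 from normal, adjusted p = 0.0399). Its 8-week call was lost in 4 of the 6 fits without 1 array (limma adjusted p up to 0.121). Cyp2f2 lay above the table's median on 5 arrays only, so its lower values are near background.

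Cyp2e1, the ethanol-inducible P450 that is known to activate AOM, varied widely within groups. It measured 118, 89.1 and 24.9 in inflamed mucosa, against 180, 34.6 and 61.2 in normal mucosa (-0.14 ± 0.53, adjusted p = 0.86), and passed in no comparison. Cyp2j6, of the subfamily of arachidonic acid epoxygenases, took another course from most members. Its signal was 80.9, 77.2 and 57.6 in inflamed mucosa, against 95.3, 103 and 102 in normal mucosa, and 120, 181 and 126 in low-grade dysplasia. At 6 weeks it was 130, 236 and 168, at 8 weeks 118, 183 and 190, and in carcinoma 214, 199 and 129. Every array of these 4 stages was above every normal array, yet no change from normal mucosa passed (0.43 to 0.73, SE 0.23, adjusted p 0.092 to 0.268). The rise between inflamed mucosa and low-grade dysplasia did pass (0.84 ± 0.23, adjusted p = 0.0108). This call was lost in 2 of the 6 fits without 1 array (limma adjusted p up to 0.0578). A second Cyp2j6 probe set gave another picture. It was called lower in inflamed mucosa (-0.70 ± 0.21, limma adjusted p = 0.0126 over 21653 probe sets). Its low-grade arrays, 49.6, 77.6 and 52.7, overlapped with 59.6, 73.3 and 65.7 in normal mucosa. Its changes from normal mucosa at the 4 later stages were -0.13, 0.12, 0.15 and 0.30, with no call. Cyp2b10, a target of the receptor CAR, passed in no comparison, with signals of 27.5 to 87.4 over the 18 arrays.

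Family 3 had 1 tested member, Cyp3a13, the Cyp3a gene known from mouse intestine. Its signals were 38.5, 8.71 and 22.7 in inflamed mucosa, against 468, 402 and 291 in normal mucosa. The change was -3.41 ± 0.57 (adjusted p = 0.000229). All inflamed values were below the table's median, so the fold is a bound, at least 5.46-fold lower. Low-grade dysplasia had 16.7, 41.7 and 164 (-2.50 ± 0.57 from normal, adjusted p = 0.0248), and high-grade dysplasia at 8 weeks had 67.5, 20.9 and 121 (-2.40 ± 0.57, adjusted p = 0.0218). At 6 weeks the values, 145, 92.2 and 117, were also below all normal arrays, but the change did not pass (-1.58 ± 0.57, adjusted p = 0.153). In carcinoma the values were 445, 211 and 160 and overlapped with normal mucosa. The low-grade call was lost in 5 of the 6 fits without 1 array, with a change of -2.69 to -1.96, and remained without low-grade replicate 3. The 8-week call was lost in 3 of the 6 (limma adjusted p up to 0.0754).

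Of the 5 tested family 4 genes, 1 rose, against 22.5% of all genes, and 2 fell, against 24.3%, in inflamed mucosa, which is near the background. Cyp4v3, the mouse counterpart of the human fatty acid hydroxylase CYP4V2, was one of the 2 members that rose at 2 weeks, with 533, 509 and 564 in inflamed mucosa, against 291, 331 and 289 in normal mucosa (0.79 ± 0.11, adjusted p = 4.93e-05, 1.73-fold higher). Its later values, 263 to 392 over 12 arrays, passed no test against normal mucosa. Over the 18 arrays Cyp4v3 ran with the means of the macrophage (Pearson r = 0.90), fibroblast (0.82) and neutrophil markers (0.76). It ran against the means of the general epithelial (-0.80) and colonocyte markers (-0.69), and all of these are descriptions. Cyp4f18, which breaks down leukotriene B4 in mouse neutrophils, had 86.2, 143 and 214 in inflamed mucosa, against 62.5, 66.9 and 82.1 in normal mucosa. All 3 inflamed arrays were higher, but the change did not pass (0.85 ± 0.45, adjusted p = 0.138). Small falls passed for Cyp4f13 (100, 105 and 96.8 in inflamed mucosa, against 144, 146 and 128 in normal mucosa; -0.41 ± 0.14, adjusted p = 0.0248) and Cyp4f16 (128, 154 and 164, against 202, 254 and 176; -0.45 ± 0.16, adjusted p = 0.0276). The Cyp4f13 call was lost without normal replicate 1 or 2 or inflamed replicate 1 or 3 (adjusted p 0.053 to 0.0763), and another Cyp4f16 probe set had a change of 0.05. Cyp4b1 passed no comparison with normal mucosa.

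**Figure D4:**
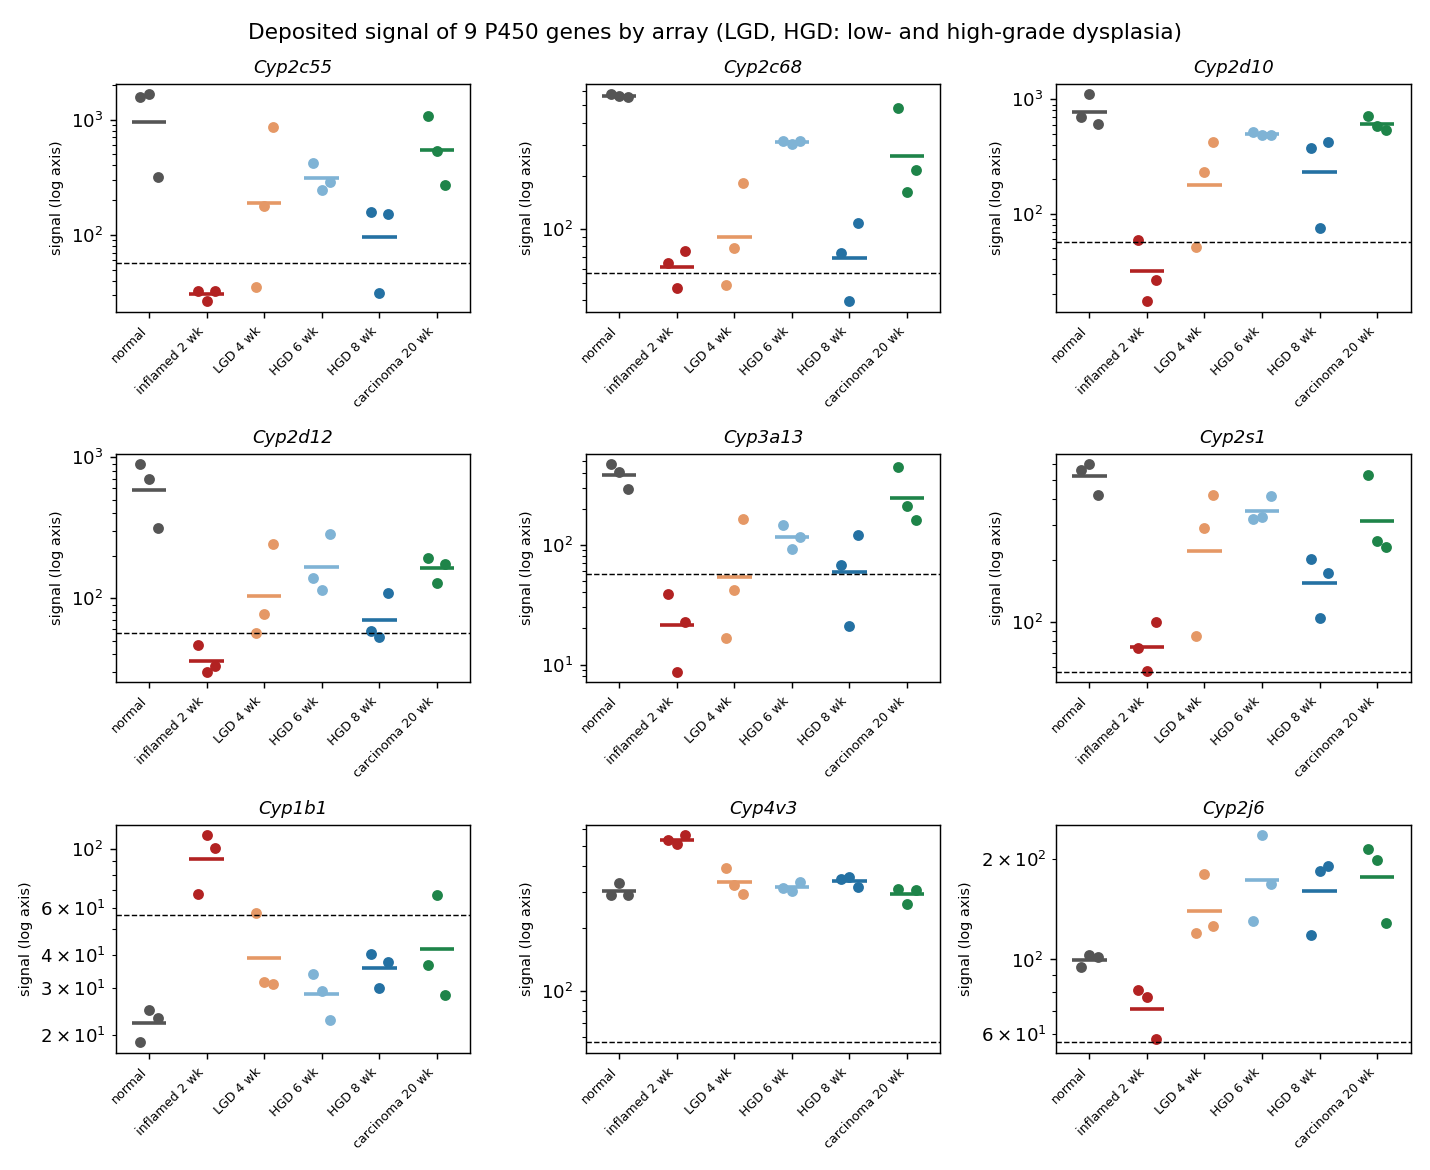
Deposited signal (log axis, its range differs between panels) of 9 P450 genes in the 6 groups, 3 arrays each as points; bars are group means of log2(signal + 16) turned back to signal, and the dashed line is the median of the whole table, 56.6. The 6 genes in the upper panels are lowest in inflamed mucosa, and Cyp1b1 and Cyp4v3 are highest there. Cyp2j6 is above normal mucosa in the 4 later groups for the probe set chosen, not for its second probe set.

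Fewer members differed from normal mucosa at the later stages. In low-grade dysplasia 6 of the 23 differed, against 5.7% of all genes; 6 fell, against 3.09%, and 0 rose, against 2.61%; the 6 were Cyp3a13, Cyp2c68, Cyp2d12, Cyp2d26, Cyp2d13 and Cyp4f13. The median change was -0.80, beside 0.02 for all genes. In 13 members all 3 arrays lay below all normal arrays, against 13.9% of all genes, and in 2 above them, against 16.3%. The count of 6 falls rests on single arrays: the number called was 13 without low-grade replicate 3 and 1 or 2 without any other of the 6 arrays. Low-grade replicate 2 also had a Gapdh 3′ to 5′ log2 signal ratio of 1.63, against -0.08 to 0.16 on the other 17 arrays, and without it 1 member was called. For fits without 1 array, here and below, the share of all genes called was not counted.

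High-grade dysplasia at 6 weeks gave 0 calls among members in limma, where 1.14% of all genes passed. Of the members, 7 had an unadjusted p under 0.05, and a fit of the 2 groups alone called 6. Here and below, the share of all genes was not counted for unadjusted p-values or for fits of 2 groups alone. All 3 arrays of 6 weeks lay below normal mucosa in 9 members, against 17.4% of all genes, and above it in 2, against 17.6%. Cyp2d12 had the largest change of the 23 members there (-1.71 ± 0.46, adjusted p = 0.0809). At 8 weeks, where the labels add active inflammation, 8 of the 23 differed, against 11.2% of all genes; 8 fell, against 6.4%, and 0 rose, against 4.83%. These were Cyp2c55, Cyp2d12, Cyp2c68, Cyp3a13, Cyp2f2, Cyp2s1, Cyp2d13 and Cyp2d22. In 14 members all 3 arrays lay below normal mucosa, against 17.9% of all genes, and in 3 above, against 15.5%, with a median change of -0.82 beside 0.03. Without 1 array the count ranged from 2 (normal replicate 1 or 8-week replicate 2) to 11 (without 8-week replicate 1), with 3 without normal replicate 2, 5 without normal replicate 3 and 4 without 8-week replicate 3. In carcinoma 0 members passed in limma, where 0.901% of all genes did; 6 had an unadjusted p under 0.05, and the fit of the 2 groups alone called 1. All 3 carcinoma arrays lay below normal mucosa in 5 members, against 17.1% of all genes, and above it in 3, against 14.4%. The median change of the 23 members was -0.19, beside -0.02 for all genes.

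**Figure D5:**
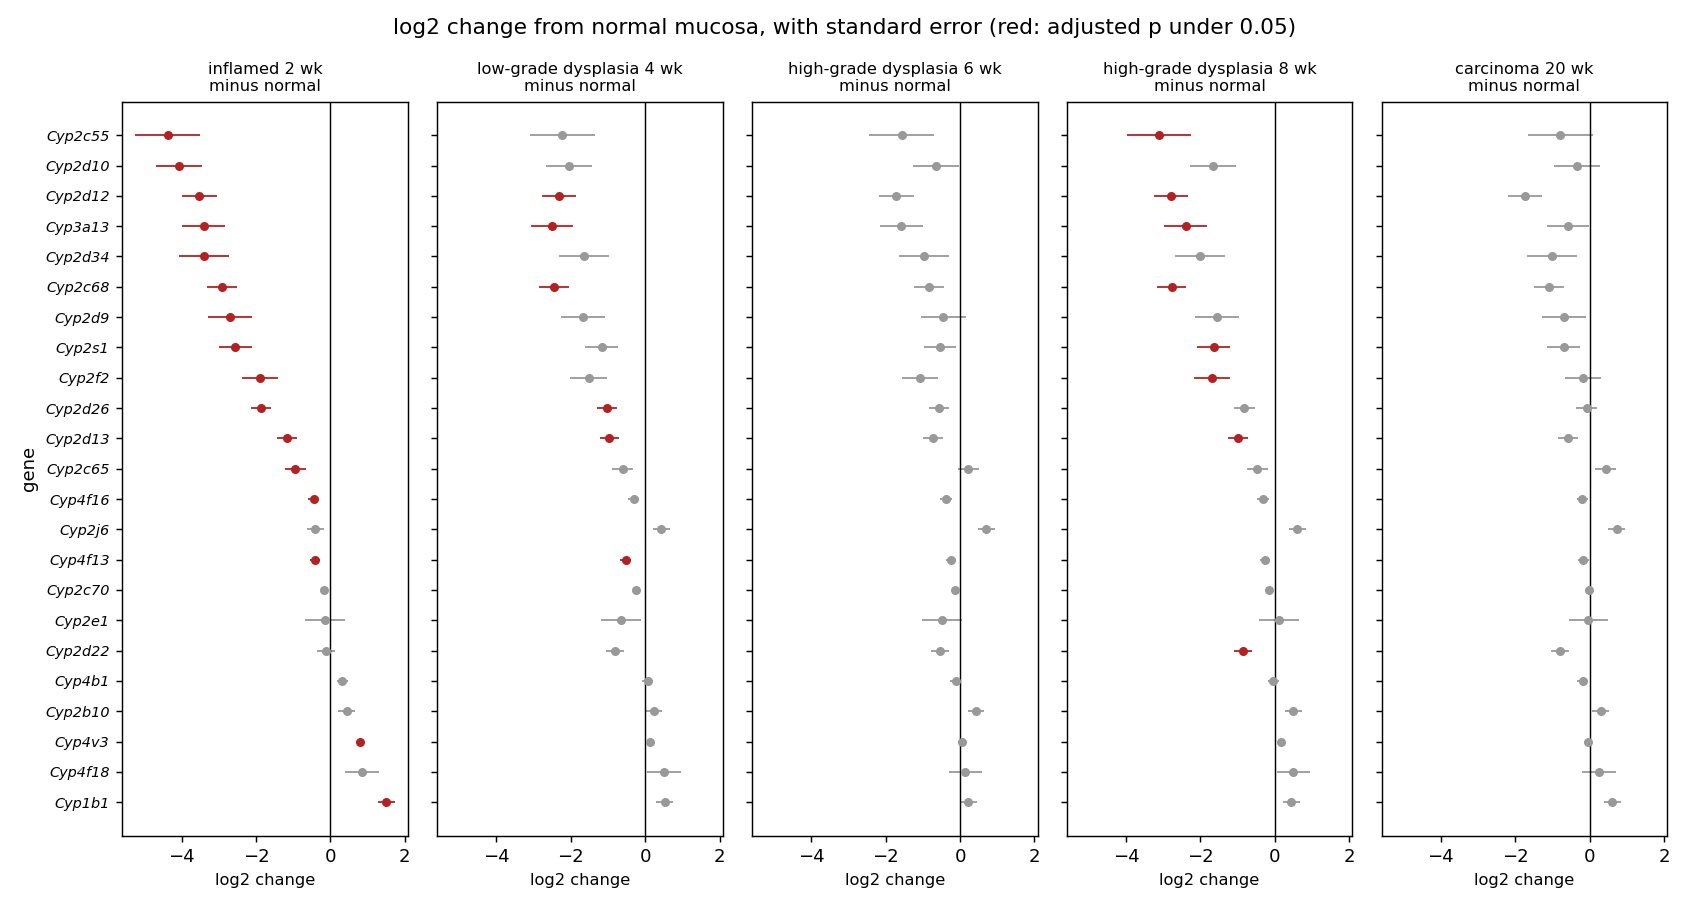
Change in log2(signal + 16) from normal mucosa in each of 5 stages for the 23 tested P450 genes, as points with the standard error of the limma fit (n = 3 arrays per group); red marks an adjusted p under 0.05. There are 16 red points in inflamed mucosa, 6 in low-grade dysplasia, 0 in high-grade dysplasia at 6 weeks, 8 at 8 weeks and 0 in carcinoma, for values as deposited.

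Between stages, 7 members differed in low-grade dysplasia from inflamed mucosa, against 36.3% of all genes. Of these 4 rose, against 19.3% of all genes (Cyp2d10, Cyp2s1, Cyp2d26 and Cyp2j6). The other 3 fell, against 17% of all genes (Cyp1b1, Cyp4v3 and Cyp2d22). All 4 rises turned negative when set relative to epithelial markers. On that scale the median change of all genes was -2.86, and 96.3% of all genes were called lower. The Cyp2d22 call was kept in 1 of the 6 fits without 1 array. Its second probe set had a mean log2(signal + 16) of 6.89 in inflamed mucosa and 6.83 in low-grade dysplasia. Cyp4v3 fell by 0.65 ± 0.11 (adjusted p = 0.000406) and Cyp2s1 rose by 1.38 ± 0.44 (adjusted p = 0.0226). Of the 6 fits without 1 array, 3 lost the Cyp2s1 call and 4 lost the Cyp2d26 call. The number of members called was 2 without low-grade replicate 2, 3 without inflamed replicate 2 or 3 and 4 without low-grade replicate 3. It was 7 without inflamed replicate 1 and 10 without low-grade replicate 1. Between high-grade dysplasia at 8 and at 6 weeks 0 members and 0% of all genes passed, with 4 members at an unadjusted p under 0.05. Carcinoma against high-grade dysplasia at 6 weeks also gave 0 members and 0% of all genes, with 0 members at an unadjusted p under 0.05. Over all 6 groups the moderated F test called 16 of the 23, against 45.3% of all genes; Cyp4f13, Cyp4f16, Cyp4f18, Cyp4b1, Cyp2e1, Cyp2c70 and Cyp2b10 were not called.

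Across the 18 arrays the 14 P450 genes that fell at 2 weeks ran to differing degrees with the mean of the mature colonocyte markers. Pearson r was 0.97 for Cyp2d34, 0.91 for Cyp2d9, 0.90 for Cyp2d10 and Cyp2s1, 0.88 for Cyp3a13 and 0.87 for Cyp2c55. It was 0.85 for Cyp2d26, 0.82 for Cyp2c68 and Cyp2d12, 0.78 for Cyp2d13, 0.72 for Cyp2c65, 0.62 for Cyp2f2, 0.53 for Cyp4f13 and 0.40 for Cyp4f16. For Cyp2d22, whose chosen probe set had no call at 2 weeks, it was 0.19 and for Cyp2e1 0.11. The same 14 genes ran against the means of other markers. Their r was -0.86 to -0.40 with neutrophil, -0.77 to -0.46 with macrophage and -0.84 to -0.25 with fibroblast markers. With the general epithelial markers r was 0.25 to 0.76. For Cyp2d12 (-0.86), Cyp2d13 (-0.82), Cyp4f13 (-0.80) and Cyp2f2 (-0.68) the neutrophil r was larger in size than the colonocyte r. All of these are descriptions over arrays that share the 6 stages.

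Of 13 tested transcription factors that control P450 genes, 6 fell, against 24.3% of all genes, and 4 rose, against 22.5%, in inflamed mucosa. Those that fell included Hnf4a, a factor of gut and liver epithelium (-3.95 ± 0.51, adjusted p = 2.71e-05), the vitamin D receptor Vdr (-3.26 ± 0.36, adjusted p = 9.25e-06) and Nr1i2, the xenobiotic receptor PXR (-2.12 ± 0.32, adjusted p = 0.000108). Cebpb, a factor of the acute-phase response, rose by 3.05 ± 0.43 (adjusted p = 6.2e-05). At 8 weeks Vdr (-2.22 ± 0.36, adjusted p = 0.00465), Nr1i2 (-1.08 ± 0.32, adjusted p = 0.0469) and Ppara, the fatty acid receptor (-0.77 ± 0.09, adjusted p = 0.000499), were lower than in normal mucosa. Ppara was the 1 regulator that passed in carcinoma (-0.63 ± 0.09, adjusted p = 0.00489) and at 6 weeks (-0.56 ± 0.09, adjusted p = 0.0114). In low-grade dysplasia Vdr, Ppara and Nfe2l2, the oxidative stress factor NRF2, fell.

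Of the 7 tested redox partners and haem genes, 3 rose, against 22.5% of all genes, and 2 fell, against 24.3%, in inflamed mucosa. Hmox1, which degrades haem, rose by 3.45 ± 0.26 (adjusted p = 5.86e-07), the cytochrome b5 reductase Cyb5r3 by 0.95 ± 0.14 and the cytochrome b5 gene Cyb5a by 0.57 ± 0.12, while the outer mitochondrial form Cyb5b fell by 0.99 ± 0.17. Por, the P450 reductase, had no probe set annotated to it alone. Of 2 tested further targets of the aryl hydrocarbon receptor, Tiparp rose (0.66 ± 0.19, adjusted p = 0.0109) and Nqo1 did not pass.

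Genes of neighbouring pathways were counted from lists. Of 19 tested genes of conjugation and other drug metabolism, 14 fell, against 24.3% of all genes, and 1 rose, against 22.5%, in inflamed mucosa. In low-grade dysplasia 5 fell, against 3.09% of all genes, at 8 weeks 7, against 6.4%, at 6 weeks 1 and in carcinoma 0. Of all genes, 1.14% differed in either direction at 6 weeks and 0.901% in carcinoma. The sulphotransferase Sult1d1 (-5.76 ± 0.62), the glucuronosyltransferase Ugt2b34 (-5.10 ± 0.61), Sult1b1 (-3.99 ± 0.90) and the glutathione transferase Gstm3 (-3.29 ± 0.33) changed most at 2 weeks. The median change of that list was -2.14 in inflamed mucosa, beside -0.94 for the 23 P450 genes and 0.01 for all genes. Of 12 lipid mediator genes, 3 rose and 3 fell at 2 weeks, which is near the 22.5% and 24.3% of all genes; Ptgs2, the inducible cyclooxygenase, rose by 3.19 ± 1.02 and Hpgd, which breaks down prostaglandins, fell by 3.76 ± 0.44. Ephx2, the soluble hydrolase of P450 epoxides, fell by 1.10 ± 0.27 (adjusted p = 0.00413). Of 9 tested PPARA targets, 6 fell and 2 rose at 2 weeks, against 24.3% and 22.5% of all genes, 3 fell in low-grade dysplasia, against 3.09%, and 4 at 8 weeks, against 6.4%.

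Of 9 tested P450 genes outside families 1 to 4, 4 rose, against 22.5% of all genes, and 1 fell, against 24.3%, in inflamed mucosa, 5 called in all beside 46.8% of all genes. Cyp7b1, an oxysterol hydroxylase, rose by 4.04 ± 0.41 (adjusted p = 4.44e-06) and Ptgis, the prostacyclin synthase, by 1.10 ± 0.21, while Cyp39a1, another oxysterol hydroxylase, fell by 1.63 ± 0.25. Cyp51, which demethylates lanosterol in cholesterol synthesis, was higher than in normal mucosa in low-grade dysplasia (1.11 ± 0.16), at 6 weeks (1.10 ± 0.16), at 8 weeks (0.91 ± 0.16) and in carcinoma (0.97 ± 0.16, adjusted p = 0.0149).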

How the data were processed

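RNA of 18 samples was measured on 1 array each. The authors deposited a linear intensity signal per probe set, and MAS5 is named per the submitters' processing notes, with version and settings not given in the sources. Array medians ran from 55.7 to 57.8, so signals were not rescaled. Of 45101 probe sets, 64 are controls, 34945 are annotated to 1 gene, 932 to several and 9160 to none. All 54 members matched the gene table, which changed 0 symbols. Signals were taken to log2 after adding 16, 1 probe set was chosen per gene, and a gene was tested when at least 3 arrays exceeded the table's median, leaving 12868 genes. limma 3.58.1 (R 4.3.3) fitted 6 group means with an intensity trend over all 18 arrays (12 residual degrees of freedom) and gave two-sided p-values adjusted by Benjamini-Hochberg, threshold 0.05. The script was tested on simulated data. Members and lists were chosen with earlier results of these data known. Named in full were up to 8 passing members with the largest change per comparison with normal mucosa, up to 5 between stages, 9 chosen genes, and up to 4 per list. The number of arrays limits the precision. The labels call replicates biological; whether same-numbered samples pair was checked (see the closing section for its effect). Alternatives were pseudocounts, filters, quantile normalization, scaling to epithelial markers, probe set choice, the replicate number as a block, 2-group fits, no trend and leaving out each array. Promoter windows are from RefSeq (GRCm38.p6); figures used Python 3.11.15 and matplotlib 3.10.9.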

Additional observations from a re-analysis of the deposited data

Results flagged for a closer look

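Signals from probe sets that were not chosen for their gene stood above normal mucosa, with a group mean over the table's median, in 2 cases. For Cyp2b10, whose chosen probe set passed in no comparison, another probe set of the kind the maker marks as able to bind related transcripts had 55.7, 95.2 and 64.6 in high-grade dysplasia at 6 weeks, 30.0, 179 and 81.1 at 8 weeks and 76.0, 105 and 71.8 in carcinoma, against 20.2, 25.7 and 19.5 in normal mucosa. Its log2 differences from normal mucosa were 1.20 at 6 weeks, 1.34 at 8 weeks and 1.40 in carcinoma, each with all 3 arrays above normal mucosa, and none passed over 21653 probe sets (limma, adjusted p 0.166, 0.0681 and 0.124). Another unchosen Cyp2b10 probe set, dimmer and above the table's median on 2 arrays, differed by 0.86 at 6 weeks, 0.97 at 8 weeks and 0.95 in carcinoma, with all 3 arrays above normal mucosa at 6 weeks and in carcinoma. For Cyp4v3, a second probe set was also higher in inflamed mucosa, at 63.5, 64.9 and 59.7 against 39.1, 39.5 and 30.2 in normal mucosa, a difference of 0.59 (adjusted p = 0.00025).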

How the results depend on the processing

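Quantile normalization, no intensity trend, pseudocounts of 1 and 64, no filter and the second probe set of the gene (chosen after seeing the data) each left every count of members within 1.5 times the value reported; without the filter, however, 3 of the 6 falls in low-grade dysplasia lost their call, and the count of 4 there includes Cyp4x1, a member near background. A filter at the table's 75th percentile gave 10 in inflamed mucosa, 3 in low-grade dysplasia, 5 at 8 weeks and 10 in the F test, with fewer members tested. Fits of the 2 groups alone gave 0 in low-grade dysplasia, 6 at 6 weeks, 4 at 8 weeks, 1 in carcinoma and 4 between low-grade dysplasia and inflamed mucosa. The share of all genes called was not counted in these fits or in the fits without 1 array that follow. Leaving out 1 array gave 13 to 16 in inflamed mucosa, 1 to 13 in low-grade dysplasia, 2 to 11 at 8 weeks, 2 to 10 between low-grade dysplasia and inflamed mucosa, 13 to 18 in the F test and 0 to 0 in the other comparisons; of 210 named changes refitted this way 139 stayed past the threshold and 71 did not. The replicate block gave 3 in low-grade dysplasia and left 31 of 35 named changes past the threshold; of 45 same-numbered pairs 11 deviated together (r over 0.1, range -0.46 to 0.33), so the numbers were not taken to pair the samples. Relative to epithelial markers the counts were 1 in low-grade dysplasia, 3 at 8 weeks and 20 between low-grade dysplasia and inflamed mucosa, all lower. In these comparisons 0.179%, 0.249% and 96.3% of all genes were called lower. On that scale 94.5% of all genes were higher in inflamed mucosa. Changes there turned to 0.0014 for Cyp2c68, 0.22 for Cyp2d9, 0.36 for Cyp2s1, 1.04 for Cyp2d26, 1.75 for Cyp2d13, 1.97 for Cyp2c65, 2.46 for Cyp4f16, 2.50 for Cyp4f13 and 1.015 for Cyp2f2 (called higher for Cyp2d13, Cyp2c65, Cyp4f16 and Cyp4f13), and between low-grade dysplasia and inflamed mucosa to -0.85 for Cyp2d10, -1.49 for Cyp2s1, -2.03 for Cyp2d26 and -2.04 for Cyp2j6. Cyp2c55 stayed lower in inflamed mucosa (-1.46) and at 8 weeks (-2.84). Where no cause is named, the cause was not tested. Signal at or below the table's median on all inflamed arrays limits the falls of Cyp2c55, Cyp2c65, Cyp2d12, Cyp2d26, Cyp2f2 and Cyp3a13, and on all normal arrays the rise of Cyp1b1.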

Other observations

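Without the filter, over 18193 genes, 4 of the 31 members near background passed in inflamed mucosa, against 35.4% of all genes. Cyp2j9 was higher (mean signal 36.4 in inflamed mucosa and 19.8 in normal mucosa; 0.54 ± 0.14, SE, limma adjusted p = 0.00767), and Cyp2c23, Cyp2c38 and Cyp4f14 were lower by 0.55, 0.31 and 0.31 on the log2 scale. Cyp4x1 was lower in low-grade dysplasia (mean signal 10.7, against 19.4 in normal mucosa; adjusted p = 0.0297), the 1 of 31 called there, against 3.06% of all genes. At 8 weeks 2 of 31 were called, against 6.68% of all genes, with Cyp4x1 lower (mean signal 12.3, against 19.4 in normal mucosa; adjusted p = 0.049) and Cyp2c39 higher (18.9, against 15.8; adjusted p = 0.0411). All of these signals lie below the table's median or close to it, where the order of values is weakly determined. A probe set shared by Cyp4f37 and Cyp4f16 lay between 63.4 and 146 on the 18 arrays, and those shared by Cyp2a5 and Cyp2a4 and by Cyp4a31 and Cyp4a10 stayed at 16.7 to 25.2 and at 6.61 to 9.94.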
